A study of Mus musculus with 4 samples.

Results

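Leukocytes carry a small set of microRNAs (miRNAs) that most cells of the vessel wall make little of. In mouse aortas from a study of chronic kidney disease (CKD) and the calcification it induces in vessels, 8 such miRNAs were followed out of 1152 listed entries, chosen by name: the pan-leukocyte miR-142a-3p and miR-142a-5p, the myeloid miR-223-3p, miR-223-5p, miR-511-3p and miR-511-5p, and the lymphoid miR-150-5p and miR-342-3p. RNA between 18 and 30 nucleotides long was sequenced in 2 libraries labelled CKD and 2 labelled Sham, all from aortas of wild type C57BL/6 mice of 12 weeks, with 4 samples pooled into each library. The labelled procedure removed the poles of the left kidney and, 1 week later, the right kidney, and was followed by 4 weeks on 2% dietary phosphate and 0.45% NaCl in the water. The labels word it alike for both groups, so what the Sham mice underwent is not clear from them.

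miR-142 is made in nearly all blood cell lineages and is scarce outside them. miR-223 is a miRNA of granulocytes and monocytes that restrains neutrophil activation, and platelets carry it too. miR-511 lies within the gene for the macrophage mannose receptor Mrc1 and is known from tissue macrophages and dendritic cells. miR-150 is abundant in mature B and T cells and represses the transcription factor Myb, and miR-342 is produced from an intron of Evl and is found in lymphocytes but also in other cells. A bulk library cannot tell fewer cells of a type from less RNA per cell.

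A mature miRNA finds its targets mainly through its seed, bases 2 to 8. RefSeq's table for GRCm38.p6 matched 6 of the 8 members by name, and they are shown so that the arms compared below can be told apart. The seed is in capitals.
miR-142a-5p: cAUAAAGUagaaagcacuacu
miR-142a-3p: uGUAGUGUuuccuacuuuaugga
miR-223-5p: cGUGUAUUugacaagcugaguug
miR-223-3p: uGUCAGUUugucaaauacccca
miR-511-3p: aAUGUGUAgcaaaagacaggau
miR-342-3p: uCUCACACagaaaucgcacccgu
No pair of these 6 shares a seed, and 0 other mature mouse miRNAs in that table carry any of the 6 seeds. Their GC content ran from 33.3% in miR-142a-5p to 52.2% in miR-342-3p.

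On the plus strand of GRCm38, miR-142a-5p lies at chr11:87756867-87756887, miR-142a-3p at chr11:87756903-87756925, miR-223-5p at chrX:96242842-96242864, miR-223-3p at chrX:96242884-96242905, miR-511-3p at chr2:14261051-14261072 and miR-342-3p at chr12:108658680-108658702. In the GENCODE M21 annotation, Mir142 lies in an intron of the noncoding gene Mir142hg and overlaps Mir142b on the opposite strand. Mir223 overlaps an exon of the noncoding gene F630028O10Rik, Mir342 lies in an intron of Evl, Mir511 in an intron of Mrc1, and Mir150 on chromosome 7 overlaps no other annotated gene. miR-142b, from the strand opposite Mir142, has no entry of its own among those listed, and nothing says how strand was handled in the counting. The hairpins of Mir142 and Mir223 are shown because both of their arms are compared below. The mature arms are in capitals, the 5p arm first.
Mir142: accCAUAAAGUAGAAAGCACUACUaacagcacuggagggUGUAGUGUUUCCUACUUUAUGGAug
Mir223: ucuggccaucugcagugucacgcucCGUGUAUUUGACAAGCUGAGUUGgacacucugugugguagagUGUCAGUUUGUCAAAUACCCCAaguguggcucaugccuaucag

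The libraries held 17532748 and 16658810 recovered reads in CKD and 17520690 and 16878392 in Sham, and each deposited library sums to about 1000000, so its values are read as counts per 1000000 reads (CPM). The smooth muscle list (both arms of miR-143 and of miR-145a) made up between 48.6% and 83.4% of a library, and the 8 leukocyte members between 0.0113% and 0.0611%. miR-143-3p took a smaller share of the reads in CKD, which by itself raises the CPM of other entries: over the 479 tested entries the median of the log2 differences, CKD minus Sham, was 1.34. A second scale divides each CPM by a trimmed-mean (TMM) factor, 1.83 and 1.61 for CKD and 0.487 and 0.697 for Sham, which takes out a shift shared by most entries and leaves a median of 0.02. TMM assumes that most miRNAs were unchanged, which these data do not test. Values below are given on the deposited scale and on the TMM scale. Nothing in the labels says that the pools were independent sets of animals, so the p-values speak of the spread among these 4 libraries alone.

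The leukocyte members were detected in all 4 libraries, and Sham 2 stood apart from Sham 1 for part of them. On the TMM scale the log2 ratio of Sham 2 to Sham 1 was 1.36 for miR-142a-5p, 1.14 for miR-142a-3p and 1.25 for miR-150-5p, each above at least 96.0% of the tested entries. It was 0.16 for miR-223-3p, -0.09 for miR-511-3p and 0.31 for miR-342-3p. Red cell miRNAs were also higher in Sham 2, by unlike amounts. The log2 ratio was 1.62 for miR-451a, the main red cell miRNA, 1.36 for miR-144-3p and 1.66 for miR-144-5p. It was 0.94 for miR-486a-5p and only 0.14 for miR-486a-3p. The endothelial miR-126a-3p lay at -0.27. The CKD libraries differed as well, for other members. On the TMM scale the log2 ratio of CKD 2 to CKD 1 was 0.84 for miR-142a-3p, 0.70 for miR-511-3p and 0.59 for miR-223-3p. Each was above at least 93.5% of the tested entries. For miR-342-3p it was 0.48, for miR-142a-5p 0.20, for miR-150-5p -0.26 and for miR-451a 1.66. The other red cell miRNAs did not move in step: 3.05 for miR-486a-5p, 1.00 for miR-144-5p, 0.42 for miR-144-3p and -0.32 for miR-486a-3p. The red cell list, 6 miRNAs with reads in every library, summed to 1039 and 4806 CPM in CKD and to 220 and 843 CPM in Sham, where miR-486a-5p and miR-486b-5p have equal values and were counted once. Its part in the values of the leukocyte members was not tested.

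**Figure D1:**
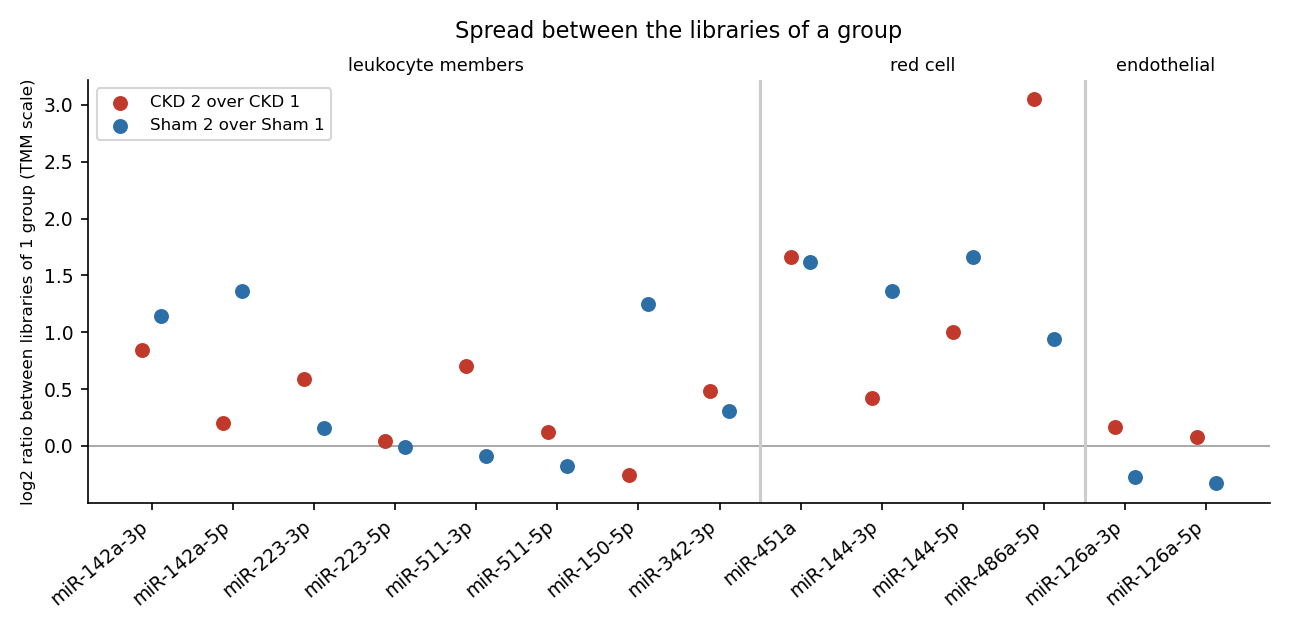
Log2 ratio between the 2 libraries of a group on the TMM scale (vertical axis) for the 8 leukocyte members, 4 red cell and 2 endothelial miRNAs (horizontal axis), CKD 2 over CKD 1 in red and Sham 2 over Sham 1 in blue. miR-142a-5p (1.36), miR-142a-3p (1.14) and miR-150-5p (1.25) were higher in Sham 2, as was miR-451a (1.62). miR-142a-3p (0.84), miR-511-3p (0.70) and miR-223-3p (0.59) were higher in CKD 2, as was miR-451a (1.66).

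The 3p arms of the myeloid hairpins, miR-223-3p and miR-511-3p, had the largest rises among the members on the deposited scale. limma called 82.9% of the tested entries higher in CKD on that scale. miR-223-3p had 146.64 and 194.67 CPM in CKD, against 25.63 and 41.18 CPM in Sham. Both CKD libraries lay far above both Sham libraries, and 91.2% of the tested entries also had both above. The means, 171 ± 34.0 and 33.4 ± 11.0 CPM (SD, n = 2 each), differed 5.11-fold. The log2 difference was 2.34 (limma, SE 0.41 and adjusted p = 0.0011), and it stayed past the threshold with any single library left out (limma adjusted p of at most 0.03).

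After TMM scaling miR-223-3p had 80.2 and 121 CPM in CKD and 52.6 and 59.1 CPM in Sham. The groups still did not overlap, as for the 29.9% of tested entries with both CKD libraries above both Sham libraries. The difference of 0.81 (SE 0.23) did not pass (limma adjusted p = 0.11, unadjusted p = 0.02). Without CKD 2 the difference was 0.51, and without CKD 1 it was 1.10. The call depended on the tool and the scaling: DESeq2 on the recovered reads gave 0.87 (adjusted p = 0.0081), edgeR's quasi-likelihood test 0.85 (adjusted p = 0.13), and limma with library totals counted without miR-143-3p 1.04 (adjusted p = 0.05, just under the threshold), a scaling that leaves the median of all entries at 0.22.

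miR-511-3p, the arm of the Mrc1 hairpin with more reads, followed miR-223-3p closely. It had 16.48 and 24.61 CPM in CKD, against 3.20 and 4.27 CPM in Sham, and rose on the deposited scale by 2.17 (limma, SE 0.32 and adjusted p = 6.7e-04). TMM-scaled, it had 9.01 and 15.3 CPM in CKD and 6.57 and 6.13 CPM in Sham. Again the groups did not overlap, as for the 29.9% of tested entries that lay above in this way. The difference of 0.80 (SE 0.26) did not pass (limma adjusted p = 0.15, edgeR adjusted p = 0.16, DESeq2 adjusted p = 0.14). Without CKD 2 the difference was 0.44, and without CKD 1 it was 1.12. Per read of miR-223-3p there were 0.112 and 0.126 reads of miR-511-3p in CKD and 0.125 and 0.104 in Sham, so this ratio overlapped between the groups while each miRNA differed several-fold on the deposited scale.

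The minor arms of both myeloid hairpins had few reads. miR-223-5p had 3.94 and 3.60 CPM in CKD and 0.80 and 1.13 CPM in Sham, or 69 and 60 reads against 14 and 19. miR-511-5p had 3.48 CPM in each CKD library and 0.86 and 1.01 CPM in Sham, or 61 and 58 reads against 15 and 17. Both had a Sham mean under 1 CPM, so they passed the filter of a mean of at least 1 CPM over the 4 libraries through the CKD libraries. Entries that pass in this way had to be higher in CKD, so their differences are given without a test: 1.28 and 1.21 on the deposited scale and 0.28 and 0.22 on the TMM scale, values that the pseudocount of 1 CPM holds down.

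**Figure D2:**
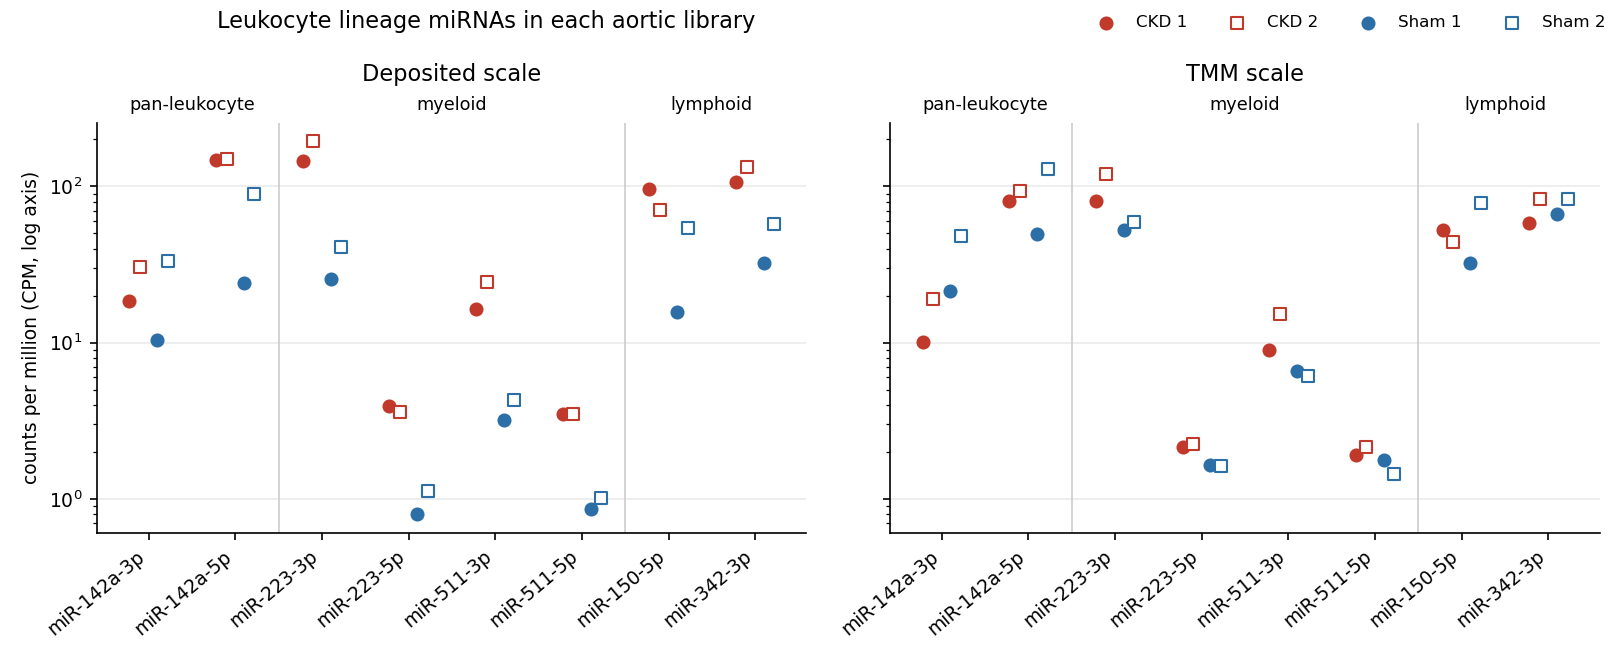
Counts per 1000000 reads (CPM, log axis) of the 8 members in each library, CKD in red and Sham in blue, on the deposited scale (left) and the TMM scale (right). On the deposited scale the groups overlap for miR-142a-3p. On the TMM scale CKD lies above Sham without overlap for both arms of miR-223 and of miR-511, and below it for miR-142a-3p. There 29.9% of the tested entries lie above and 29.9% below in this way.

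The lymphoid miRNAs moved with the shared shift. miR-342-3p had 107.57 and 133.14 CPM in CKD, against 32.25 and 57.53 CPM in Sham, a rise of 1.45 on the deposited scale (limma, SE 0.42 and adjusted p = 0.008). This rise was not called without CKD 1 (1.60, limma adjusted p = 0.11), without CKD 2 (1.30, limma adjusted p = 0.16) or with no filter on low values (limma adjusted p = 0.055). TMM-scaled, it had 58.8 and 82.6 CPM in CKD and 66.2 and 82.6 CPM in Sham, which overlap, with a difference of -0.08 (limma, SE 0.22 and adjusted p = 0.83) that turned to 0.15 with library totals counted without miR-143-3p.

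miR-150-5p had 96.05 and 70.53 CPM in CKD, against 15.70 and 54.27 CPM in Sham. Its 2 Sham libraries differed 3.46-fold, more than either CKD library differed from Sham 2. The rise of 1.46 on the deposited scale (limma, SE 0.52 and adjusted p = 0.022) was 0.59 without Sham 1 (limma adjusted p = 0.17) and 2.32 without Sham 2. It was also not called without CKD 1 (1.24, limma adjusted p = 0.22), without CKD 2 (1.68, limma adjusted p = 0.071) or with no filter on low values (limma adjusted p = 0.17). With TMM scaling miR-150-5p had 52.5 and 43.8 CPM in CKD, between the 32.2 and 77.9 CPM of Sham, with a difference of -0.07 (limma, SE 0.43 and adjusted p = 0.95).

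The arms of miR-142a went apart. miR-142a-5p, the arm with more reads in every library, had 147.89 and 150.31 CPM in CKD, against 24.14 and 90.06 CPM in Sham, and rose by 1.65 on the deposited scale (limma, SE 0.54 and adjusted p = 0.015). Like that of miR-150-5p, its value leaned on Sham 1: it was 0.72 without that library (limma adjusted p = 0.068) and 2.58 without Sham 2. The call was also lost without CKD 1 (1.66, limma adjusted p = 0.13), without CKD 2 (1.64, limma adjusted p = 0.087) and with no filter on low values (limma adjusted p = 0.15). After TMM scaling its 80.9 and 93.3 CPM in CKD lay between the 49.6 and 129 CPM of Sham (difference 0.11, limma SE 0.47 and adjusted p = 0.91).

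Among the 6 members with a Sham mean of at least 1 CPM, only miR-142a-3p was not called on the deposited scale. It had 18.54 and 30.43 CPM in CKD, within the 10.39 and 33.53 CPM of Sham, a difference of 0.32 on the log2 scale (limma, SE 0.48 and adjusted p = 0.54). TMM-scaled, it had 10.1 and 18.9 CPM in CKD and 21.3 and 48.1 CPM in Sham, so both CKD libraries lay below both Sham libraries. The same was true of 29.9% of the tested entries. The difference of -1.15 (SE 0.48) did not pass (limma adjusted p = 0.23, edgeR adjusted p = 0.23, DESeq2 adjusted p = 0.1).

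miR-223-5p and miR-511-5p, which passed the filter through CKD, are left aside here. Of the 6 other members, 5 were called higher on the deposited scale and none lower. There limma with Benjamini-Hochberg adjustment called 82.9% of the 479 tested entries higher and 1.04% lower. The members' share of calls was near that of all entries. The shares of all entries given here still include entries that passed the filter through a single group, so the sets are not alike. Shares over entries with a Sham mean of at least 1 CPM were not computed. The same 5 had both CKD libraries above both Sham libraries, as had 91.2% of the tested entries. On the TMM scale limma called 0 of these 6 members, where it called 7.93% of the entries, and 2 members, miR-223-3p and miR-511-3p, had an unadjusted p under 0.05 (26.7% of the entries). edgeR also called 0 of the 6 (6.89% of the entries), and DESeq2 called 1 of the 6 to which it gave an adjusted p (21.0% of the entries with one). Both CKD libraries lay above both Sham libraries on the TMM scale for miR-223-3p and miR-511-3p, and below them for miR-142a-3p, where 29.9% of the entries lay above and 29.9% below.

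By lineage, the TMM-scale difference was 0.81 and 0.80 for the 3p arms of the myeloid hairpins, -0.07 and -0.08 for the 2 lymphoid members, and -1.15 and 0.11 for the arms of miR-142a, which lay on either side of the median of all tested entries, 0.02. On the deposited scale each of these values was larger by a nearly common shift. Scaling thus changed their level, and their order was the same on both scales, which is not a separate result.

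**Figure D3:**
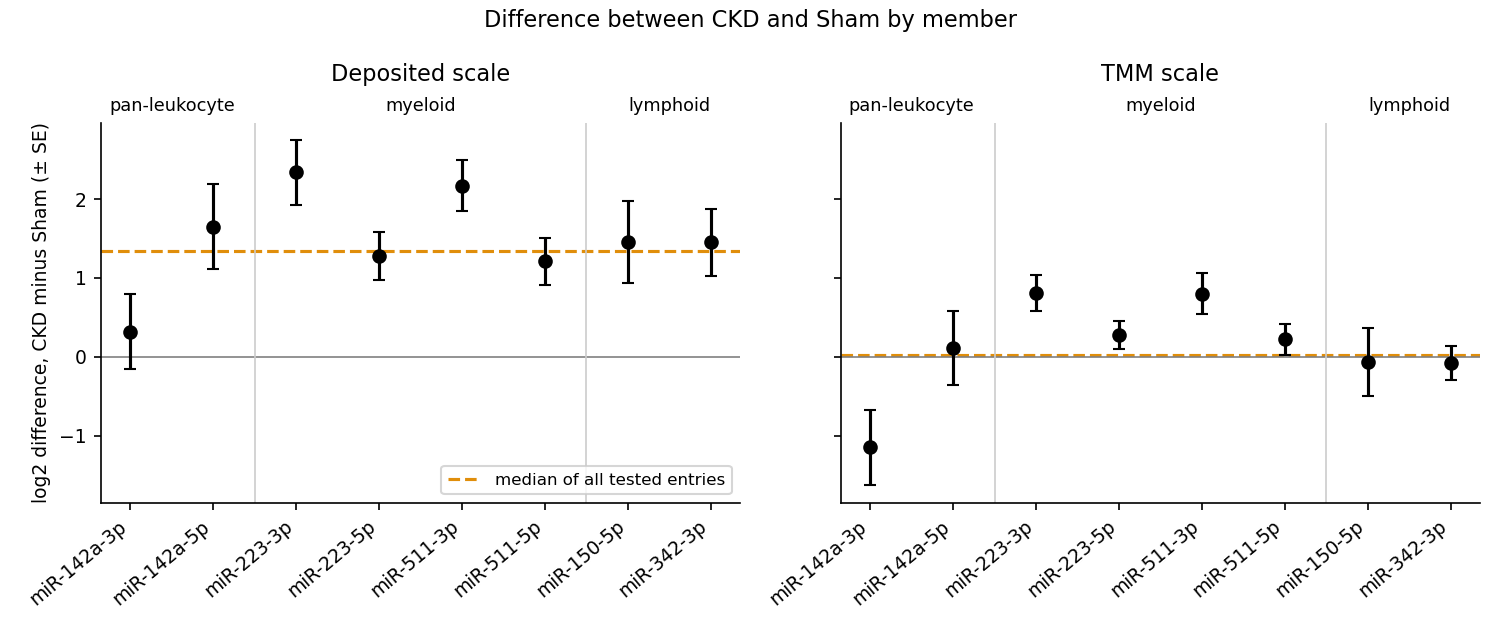
Log2 difference between CKD and Sham (vertical axis, points with SE) for the 8 members on the deposited scale (left) and the TMM scale (right). The dashed line is the median of all 479 tested entries, 1.34 on the left and 0.02 on the right, with miR-223-3p and miR-511-3p above it and miR-142a-3p below it on both scales.

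Ratios between miRNAs of the same library do not depend on how the library was scaled, and they set the lineages against each other directly. The 4 myeloid miRNAs summed to 171 and 226 CPM in CKD and to 30.5 and 47.6 CPM in Sham. The 2 lymphoid miRNAs summed to 204 CPM in each CKD library and to 48.0 and 112 CPM in Sham. The myeloid to lymphoid ratio was 0.838 and 1.11 in CKD, against 0.636 and 0.426 in Sham. Both CKD ratios exceeded both Sham ratios, by 0.89 on the log2 scale (1.85-fold), with means of -0.05 ± 0.289 in CKD and -0.94 ± 0.409 in Sham (SD, n = 2 each). An exact permutation test of 2 against 2 libraries cannot go below p = 0.333, so the difference is given without a call. How often such ratios of other sets of miRNAs lie without overlap was not computed. The difference was 0.60 without Sham 2 and 1.18 without Sham 1, so its size depended strongly on which Sham library was kept. With only miR-223-3p and miR-342-3p, the most abundant member of each lineage, it was 0.90.

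Of these pairs, miR-223-3p against miR-342-3p was the steadiest within the groups. There were 1.36 and 1.46 reads of miR-223-3p per read of miR-342-3p in CKD, against 0.795 and 0.716 in Sham. Against miR-150-5p the ratio of miR-223-3p was 1.53 and 2.76 in CKD and 1.63 and 0.759 in Sham, which overlap.

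The pan-leukocyte arms summed to 166 and 181 CPM in CKD and to 34.5 and 124 CPM in Sham. Their ratio to the myeloid sum was 0.976 and 0.798 in CKD, against 1.13 and 2.60 in Sham, a log2 difference of -0.96 that shrank to -0.36 without Sham 2 and grew to -1.56 without Sham 1. Their ratio to the lymphoid sum was 0.817 and 0.887 in CKD and 0.720 and 1.11 in Sham. These overlap, and the difference of -0.07 turned to 0.24 without Sham 2. As shares of the reads of all 8 members, the myeloid miRNAs held 31.5% and 37.1% in CKD and 27.0% and 16.8% in Sham (Wilson 95% intervals from 30.6% to 32.5% in CKD 1 and from 25.1% to 29.0% in Sham 1). Such intervals cover counting error only and not the spread between libraries, and no molecular identifiers are described.

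**Figure D4:**
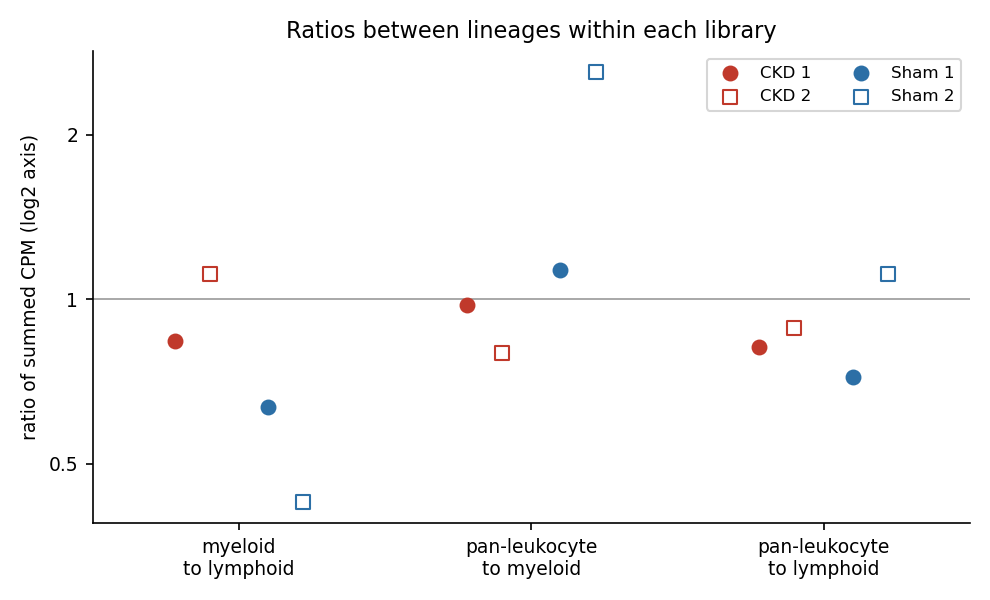
Ratio of summed CPM between lineages (vertical log2 axis) in each library, CKD in red and Sham in blue. The myeloid to lymphoid ratio was higher in CKD (0.838 and 1.11) than in Sham (0.636 and 0.426), and Sham 2 had the highest pan-leukocyte to myeloid ratio (2.60).

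Reads of miRNAs of other cells gave another denominator, which leaves the ratios between lineages as they were. Per read of the endothelial miR-126a-3p, the myeloid sum was 0.0227 and 0.0304 in CKD, against 0.0138 and 0.0181 in Sham, with no overlap (log2 difference 0.73). miR-126a-3p itself differed by 0.08 on the TMM scale, so this ratio comes near that scale. There 29.9% of the tested entries lay above without overlap. The lymphoid sum was 0.0271 and 0.0273 in CKD, within the 0.0217 and 0.0426 of Sham. Per read of the red cell miR-451a, the myeloid sum was 0.334 and 0.159 in CKD and 0.235 and 0.0828 in Sham, which overlap (log2 difference 0.72). miR-451a itself had 509.96 and 1425.25 CPM in CKD and 129.90 and 574.46 CPM in Sham, so it varied between libraries of a group more than miR-223-3p did. Against either of these miRNAs, miR-142a-3p was lower in each CKD library than in any Sham library. Per read of miR-451a there were 0.0364 and 0.0214 reads of miR-142a-3p in CKD and 0.0800 and 0.0584 in Sham. The share of all entries without overlap was not computed for these denominators.

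Both arms of a hairpin are cut from 1 precursor, and their ratio does not depend on how the library was scaled. For miR-142a, the hairpin printed above, the 3p arm had 325 and 507 reads in CKD and 182 and 566 in Sham, and the 5p arm 2593 and 2504 in CKD and 423 and 1520 in Sham. The 3p arm thus held 11.1% (Wilson 95% interval 10.0% to 12.3%) and 16.8% (15.5% to 18.2%) of the hairpin's reads in CKD, against 30.1% (26.6% to 33.9%) and 27.1% (25.3% to 29.1%) in Sham. The intervals of the CKD libraries do not reach those of the Sham libraries, although they cover counting error only.

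The log2 ratio of 3p to 5p of miR-142a was -2.65 ± 0.489 in CKD and -1.32 ± 0.148 in Sham (SD, n = 2 each), a difference of -1.33, and between -0.98 and -1.67 without any single library. Among the 130 hairpins with reads from both arms in every library and a mean of at least 1 CPM for each arm, 5 had a lower difference, and the median was -0.03 with quartiles at -0.49 and 0.33. limma over these hairpins, a test added after the data were seen, gave a standard error of 0.29 and an adjusted p of 0.054 for miR-142a, just short of the threshold, where 5.38% of the hairpins were called and 33.1% had an unadjusted p under 0.05. With both arms at a mean of at least 10 CPM the limma adjusted p was 8.5e-04, with a pseudocount of 1 CPM 0.025 and with the replicate block 0.11, and with any single library left out it lay between 0.11 and 0.27. Groups without overlap and a lower 3p share in CKD were found for 30.8% of the hairpins.

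The myeloid hairpins lay on the other side and by less, and both entered the comparison through the CKD reads of their 5p arms. The 3p arm of miR-223 held 97.4% and 98.2% of its reads in CKD and 97.0% and 97.3% in Sham, and the Wilson 95% intervals of CKD 1 (96.7% to 97.9%) and Sham 2 (95.9% to 98.3%) overlap. Its log2 ratio of 3p to 5p differed by 0.39. The 3p arm of miR-511 held 82.6% and 87.6% in CKD and 78.9% and 80.9% in Sham, and the log2 ratio differed by 0.55. Both had CKD ratios above Sham ratios without overlap, as had 29.2% of the hairpins. With a pseudocount of 1 CPM, about the level of the 5p arms in Sham, the differences became 1.06 and 0.96. Since the 5p arms passed the filter through CKD, all these differences are given without a test.

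**Figure D5:**
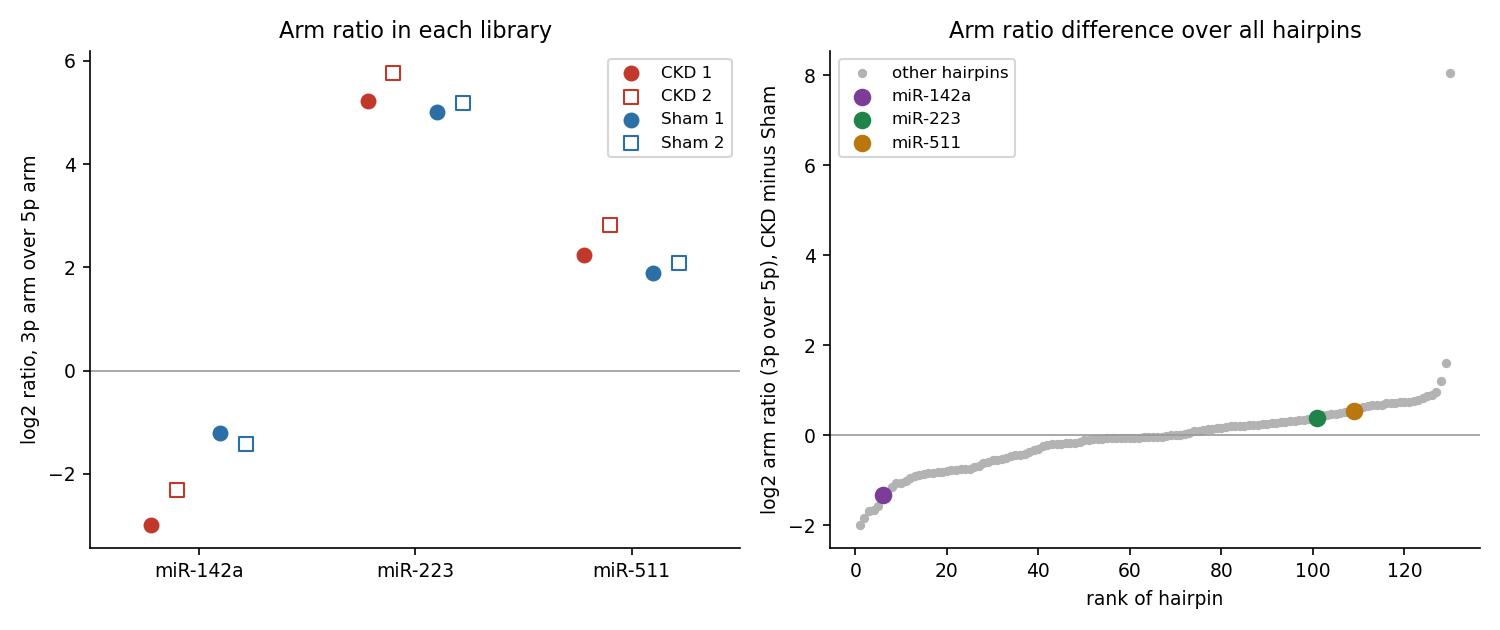
Left, log2 ratio of the 3p to the 5p arm of miR-142a, miR-223 and miR-511 in each library (CKD red, Sham blue). Right, the difference of that ratio, CKD minus Sham, for 130 hairpins ordered by size, with miR-142a (-1.33) near the low end, miR-223 (0.39) and miR-511 (0.55) above the median of -0.03, and a single hairpin far above the rest, miR-299b (8.04). The log2 ratios of miR-299b were widely spread within both groups, 6.62 and 1 in CKD and -0.87 and -7.59 in Sham.

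The order of the 4 most abundant members differed between libraries, within each group as well. miR-142a-5p (147.89 CPM) led miR-223-3p (146.64 CPM) in CKD 1, and miR-223-3p led in CKD 2. miR-142a-5p led in Sham 2, while in Sham 1 it stood at 24.14 CPM, below miR-342-3p (32.25 CPM) and miR-223-3p (25.63 CPM). In CKD the highest means were miR-223-3p at 171 ± 34.0 CPM, miR-142a-5p at 149 ± 1.71 CPM and miR-342-3p at 120 ± 18.1 CPM, followed by miR-150-5p at 83.3 ± 18.0 CPM (SD, n = 2 each). In Sham the highest mean, which rests on Sham 2, was miR-142a-5p at 57.1 ± 46.6 CPM, then miR-342-3p at 44.9 ± 17.9 CPM, miR-150-5p at 35.0 ± 27.3 CPM and miR-223-3p at 33.4 ± 11.0 CPM (SD, n = 2 each). In Sham these 4 neighbours lay within their spread. In CKD the means of miR-223-3p and miR-142a-5p differed by less than the SD of miR-223-3p, and miR-142a-3p (24.5 ± 8.41 CPM) and miR-511-3p (20.5 ± 5.75 CPM) by less than either SD (n = 2 each). Each miRNA gives 1 short read, so CPM needs no length correction, but adaptor ligation is known to favour some sequences, which limits comparisons of level between miRNAs.

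The profiles over the 4 libraries did not follow the hairpins or lineages throughout. By Euclidean distance between centred log2 profiles on the TMM scale, among 252 other miRNAs with a mean of at least 10 CPM, the nearest to miR-223-3p were miR-511-3p (0.20), miR-21a-5p (0.20) and miR-224-5p (0.26). The nearest to miR-142a-5p were miR-150-5p (0.38), miR-128-3p (0.48) and the red cell miR-144-3p (0.54), while its own other arm, miR-142a-3p, ranked 221 at a distance of 1.35. The nearest to miR-342-3p were miR-340-3p (0.09), miR-411-3p (0.14) and miR-329-3p (0.14), with miR-150-5p, the other lymphoid member, at 0.84 and rank 199. With 4 libraries such distances are a description.

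Among 18 other leukocyte-associated miRNAs listed for comparison, 12 could be tested, and the 3 most abundant were miR-181a-5p, which tunes T cell receptor signalling, miR-146a-5p, which restrains NF-kB signalling, and miR-181b-5p. On the deposited scale 9 of the 12 were called higher and none lower, where 82.9% of all entries were called higher and 1.04% lower. The median difference was 1.20 beside 1.34. These counts and medians, like the limma and edgeR results on the TMM scale below, include entries that passed the filter through a single group. Such entries had to be higher in that group, so no result is drawn from these counts. miR-147-3p, called higher, and miR-342-5p, not called, had Sham means of 0.32 and 0.64 CPM. miR-106a-5p, not called, had a CKD mean of 0.76 CPM. With TMM scaling limma called 0 of the 12, 2 of them at an unadjusted p under 0.05, and edgeR called 0, where limma called 7.93% of all entries and 26.7% had an unadjusted p under 0.05. DESeq2 called 2 of the 9 to which it gave an adjusted p, miR-181c-5p (-0.49, adjusted p = 0.022) and miR-181d-5p (-0.62, adjusted p = 0.013), both lower in CKD, a share near the 21.0% of all entries with an adjusted p. The median was -0.18, with 9 of 12 below 0. miR-181a-5p had 1109 and 1189 TMM-scaled CPM in CKD and 1170 and 1421 in Sham, a difference of -0.17 (limma, SE 0.15 and adjusted p = 0.49). miR-146a-5p had 236 and 343 TMM-scaled CPM in CKD and 311 and 330 in Sham, a difference of -0.17 (limma, SE 0.21 and adjusted p = 0.63). miR-181b-5p had 231 and 257 TMM-scaled CPM in CKD and 273 and 334 in Sham, a difference of -0.31 (limma, SE 0.16 and adjusted p = 0.29). miR-155-3p was listed at 0 in both Sham libraries and miR-147-5p in Sham 2, and neither was tested.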

How the data were processed

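Small RNA libraries from mouse aorta were compared, 2 labelled CKD and 2 labelled Sham. Per the submitters' processing notes, Bowtie (no version) and GRCm38 were used. The sources used here do not give the miRNA annotation or the counting. The deposited values sum to about 1000000 per library and were read as CPM made by the authors. In 3 of the 4 deposited files names stand above values in 1 column (unit other), and they were paired by order; this order of names was identical in all 4 files. Whole reads were recovered: 100% of non-zero values were whole within 0.005 CPM, and 1 read was worth 0.057 to 0.06 CPM.

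limma 3.58.1 with a mean-variance trend was run on log2(CPM + 1) over the 479 entries with a mean of at least 1 CPM, two-sided, Benjamini-Hochberg adjusted over all of them at 0.05, on the deposited CPM and on CPM divided by TMM factors of the recovered reads (edgeR 4.0.16). The added 1 CPM makes differences of low entries too small. edgeR's quasi-likelihood test called 33 entries and DESeq2 1.42.0 called 79. Ratios within a library used no pseudocount. The fits were tested on simulated counts in which miR-143-3p was not changed and the spread was set alike for all entries. That test does not cover the miR-143-3p shift or the spread between libraries seen here. Named were all 8 members, the 3 entries nearest to the most abundant member of each lineage, and the 3 most abundant of the comparison list; other entries were chosen after their values were seen. The members and lists were chosen with earlier results of these data known.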

Additional observations from a re-analysis of the deposited data

How the results depend on the processing

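On the deposited scale limma called 402 entries, 241 with a mean of at least 10 CPM (265 tested) and between 137 and 384 with a library left out. On the TMM scale it called 38, 21 with no filter and between 0 and 6 with a library left out, 0 without CKD 1 (97 at an unadjusted p under 0.05) and 0 without CKD 2 (116); no other tool was run there, and a lone library is assumed to vary like the other group. DESeq2 called 79 and edgeR 33. The titles give both groups the numbers 1 and 2, which with 2 pairs do not show a pairing (correlation of deviations 0.117 on the TMM scale); with the replicate block limma called 97 on the TMM scale and 352 on the deposited scale, among them miR-142a-3p (-1.15), miR-223-3p (0.81) and miR-511-3p (0.80) on the TMM scale. Among members, TMM-scale signs turned for miR-142a-5p with edgeR (-0.04), with DESeq2 (-0.01) and within a range of -0.57 to 0.74 with a library left out, for miR-150-5p (0.16 with totals without miR-143-3p, and -0.69 to 0.51) and for miR-342-3p (0.15, and -0.33 to 0.16). On the deposited scale miR-142a-3p ranged from -0.48 to 1.12. The pan-leukocyte to lymphoid difference was 0.20 with only the most abundant members and -0.38 to 0.24 with a library left out. The miR-223 and miR-511 arm differences were 1.06 and 0.96 with a pseudocount of 1 CPM. The cause of these changes was not tested. The myeloid to lymphoid (0.60 to 1.18), pan-leukocyte to myeloid (-1.56 to -0.36) and miR-142a arm differences kept their sign with each library left out. The TMM-scale differences of miR-223-3p and miR-511-3p stayed above 0 under every alternative run. Between 14 and 72 reads lie behind each Sham value of miR-223-5p, miR-511-3p and miR-511-5p.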
